A study of Mus musculus with 2 samples.

Results

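In the screen for inserts carried by neural stem cells that survived DNA damage, 40 of 18193 genes had inserts with a much higher signal in the surviving cells than in the reference control. They were chosen on the measured values: each gene was read at the probe set with the highest log2 signal averaged over the arrays, and genes with a log2 difference (survivors minus reference control) above 2.5 were kept at any signal level. On that rule 46 genes qualified (0.253% of all genes), and the rule leaves out 6 of them by name. A further 22 probe sets with no symbol or several were also above 2.5 and were assigned to no gene. The differences are therefore a description and not a test.

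Both cultures were ANSO4E cells, a mouse neural stem cell line from a transgenic animal, grown with b-FGF and EGF and infected with the GeneNet 40K lentiviral siRNA library. The animal's background was C57BL/6JxSJL/JF1 oocytes and BDF1 sperm, and the labels do not name the transgene. The reference control carried the library without MNNG, and the survivors carried it and were exposed to MNNG (an alkylating agent that methylates DNA) at 500 µM over 15 minutes, grown out and selected again with MNNG. Inserts were amplified by PCR, labeled with biotin and hybridized to 1 Affymetrix mouse genome array per condition, so no difference below has a replicate check or a p-value. Selection by MNNG, outgrowth of single clones and differences in PCR or hybridization cannot be told apart in this design.

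In a pooled RNAi screen each infected cell is meant to receive a single insert directed against a gene, and the pool is exposed to a lethal treatment. Inserts that are more abundant among the survivors mark genes whose silencing may have let a cell live. MNNG leaves alkylated bases, to which base excision repair and mismatch repair respond. Heavy damage activates poly(ADP-ribose) polymerase, which can lead to the necrotic form of death called parthanatos. A signal in this assay stands for the abundance of inserts and not for expression, so markers of neural stem cells cannot check the cell type. The sequences of the inserts were not used here.

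The 40 genes ran from 2.61 to 5.74 in log2 difference, with a median of 3.24. In the reference control their log2 signals ran from -0.39 to 5.87 with a median of 1.41, and in the survivors from 2.78 to 9.96 with a median of 4.91. None of them was among the 100 brightest genes of the reference control, and 28 were among the 100 brightest of the survivors and 12 among the brightest 20. Above a log2 signal of 5 there were 42 genes in the survivors, of which 19 belonged to the 40, and above a signal of 8 there were 15, of which 10 did. The 40 genes held 0.527% of the summed linear signal of all genes on the control array and 11.5% of it on the survivor array. The rule chose the genes on these same values, so such ranks, counts and shares follow from the choice and are no support for the gains.

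**Figure D1:**
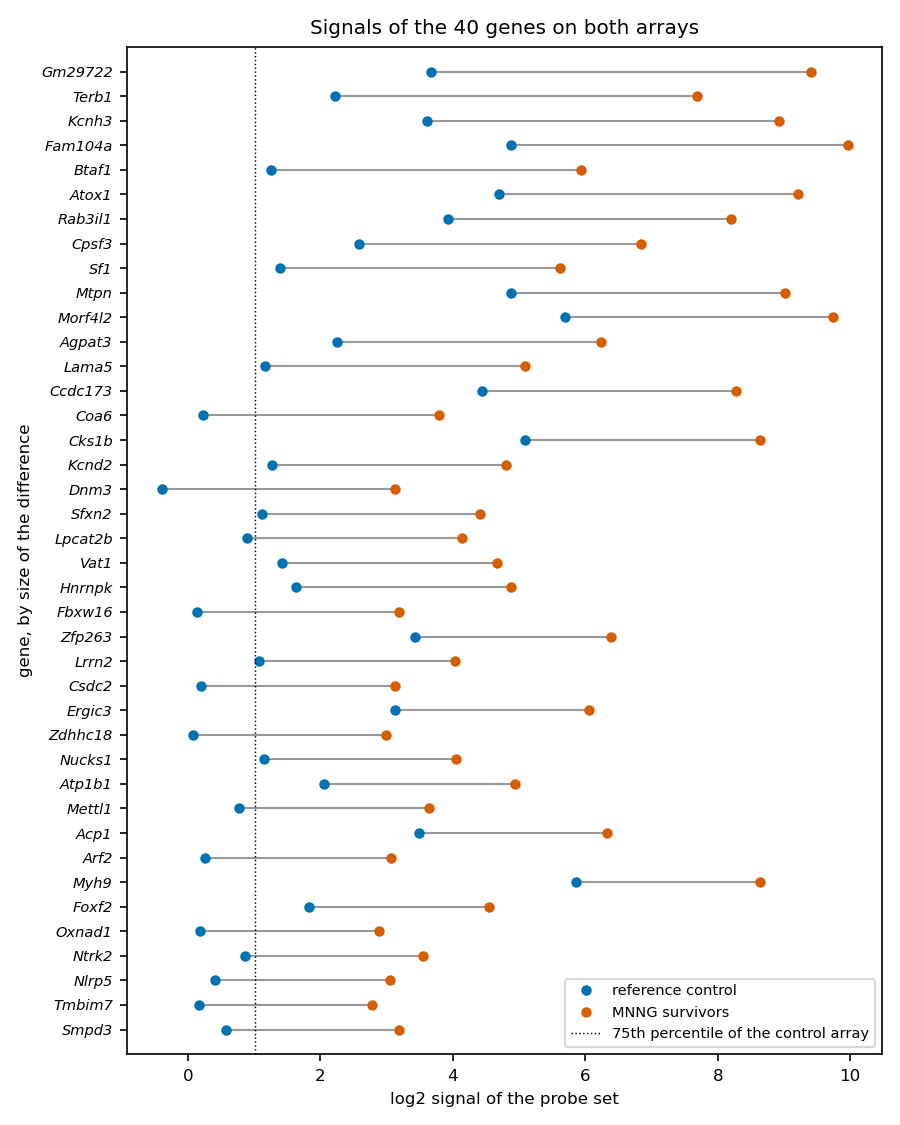
Log2 signal (horizontal axis) of the 40 genes in the reference control (blue) and in the MNNG survivors (orange), with genes ordered by their difference from 5.74 for Gm29722 to 2.61 for Smpd3 and a dotted line at the 75th percentile of the control array (1.02). Control points of 13 genes lie left of the dotted line, and the 13 genes with the largest differences all end above 5 in the survivors.

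The starting levels differed. For 13 genes the reference control lay at or below the 75th percentile of all probe sets (1.02 on the log2 scale), where most of the array sits. For 14 it lay between that value and 3, and for 13 above 3. Myh9, Morf4l2 and Cks1b were the genes above 5 in the reference control.

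**Figure D2:**
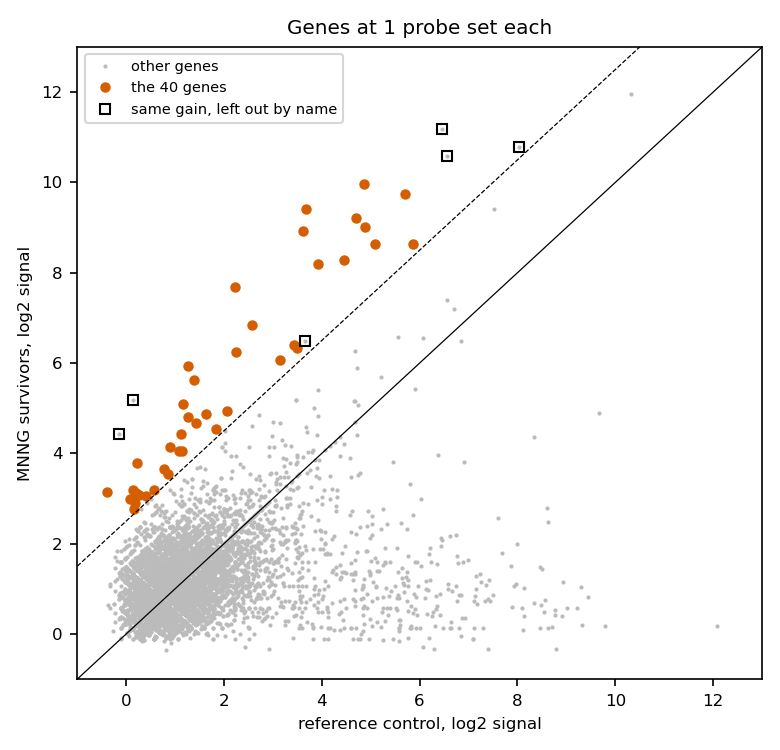
Log2 signal of each gene in the MNNG survivors (vertical axis) against the reference control (horizontal axis), with the 40 genes in orange, other genes in grey and the 6 genes left out by name as open squares; the solid line marks equality and the dashed line a difference of 2.5. The 40 genes form a band above the dashed line from the low common level up to a survivor signal of 9.96, and the many genes at the lower right are bright in the reference control and low in the survivors.

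Genes of transcription and chromatin, together with the RNA-binding Csdc2, made up 6 of the 40. Btaf1, an ATPase that removes the TATA-binding protein from DNA, had a log2 signal of 1.26 on the control array and 5.94 on the survivor array, a difference of 4.68. Morf4l2, a subunit of the NuA4 histone acetyltransferase complex, had 5.70 and 9.73, a difference of 4.04, which made it the 6th brightest gene of the survivors. Zfp263, a zinc finger protein, had 3.43 and 6.39, a difference of 2.96. The other three ended at 4.55 or below in the survivors. Csdc2, a cold shock domain protein that binds RNA, had 0.20 and 3.13, and Nucks1, a nuclear phosphoprotein that binds DNA, had 1.15 and 4.05. Foxf2, a forkhead transcription factor, had 1.83 and 4.55.

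The partners of these genes lay on both sides of equality. Related genes were listed in 24 groups after the 40 genes were known, and each was read at the probe set with the highest mean signal. Of 15 other measured NuA4 genes, 7 had a higher signal in the survivors, 6 a lower and 2 an equal one, with a median log2 difference of 0.00. The furthest of them were Epc1 (0.86 on the control array and 2.16 on the survivor array) and Epc2 (3.17 and 1.49), both enhancer of polycomb proteins. Of 7 other genes for TBP and its regulators, 2 were higher and 4 lower, and Tbp itself had 2.45 and 1.01. Over all genes the median difference was 0.00, with 4.78% above 1 and 5.45% below -1. The shares of all genes that were higher or lower at any size are not given. No excess of higher or lower genes is therefore read from these counts or from those below.

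RNA processing gave 4 of the 40. Cpsf3, the nuclease that cuts pre-mRNA before polyadenylation, had a log2 signal of 2.58 on the control array and 6.84 on the survivor array, a difference of 4.26. Sf1, which binds the intron branch point early in spliceosome assembly, had 1.39 and 5.62, a difference of 4.23. Hnrnpk, a poly(C)-binding hnRNP protein, had 1.64 and 4.88, a difference of 3.24. Mettl1, which methylates guanine in tRNA, had 0.77 and 3.64, a difference of 2.87. All 4 lay below 3 in the reference control.

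Among 16 other cleavage and polyadenylation factors 6 were higher in the survivors and 7 lower, from -1.12 for Cpsf2 to 1.01 for Cpsf6. Of 8 other factors of branch point and 3′ splice site recognition, 2 were higher and 4 lower, and Sf3a2 had 3.43 on the control array and 0.59 on the survivor array. The other probe set of Sf3a2 had a difference of 0.29. The poly(C)-binding protein Pcbp3 had 5.39 and 1.59, but its other probe set was equal on both arrays. Pcbp1, Pcbp2 and Pcbp4 stayed within 1 of equality at the chosen probe set, but another probe set of Pcbp4 had a difference of 1.01. Wdr4, the partner that Mettl1 needs for activity, had 0.62 and 2.32, a difference of 1.70, but the other 3 probe sets of Wdr4 ran from -0.39 to 0.43. In the wider list of spliceosome and hnRNP symbols, 30 of the 70 genes besides Hnrnpk were higher, 27 lower and 13 equal.

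Ion transport, receptors and matrix made up another 6. Kcnh3, a voltage-gated potassium channel of the ether-a-go-go family that is found in forebrain neurons, had a log2 signal of 3.61 on the control array and 8.92 on the survivor array, a difference of 5.31, the third largest of all genes. Kcnd2, the pore subunit of A-type potassium channels in neuron dendrites, had 1.27 and 4.81, a difference of 3.54. Atp1b1, a beta subunit of the sodium pump, had 2.06 and 4.93. These 3 genes set ion gradients or currents across the plasma membrane. Ntrk2, the receptor TrkB for brain-derived neurotrophic factor, had 0.86 and 3.55, a difference of 2.69. Lama5, a laminin alpha chain of basement membranes, had 1.16 and 5.09, and Lrrn2, a leucine-rich repeat membrane protein, had 1.08 and 4.04.

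Of 82 other potassium channel genes, 34 were higher in the survivors, 31 lower and 17 equal, with 1 above 1 and 2 below -1. The subunits that assemble with Kcnd2 (Kcnip and Dpp proteins) ran from -0.25 to 0.59, apart from Kcnip4, which had 3.48 on the control array and 2.32 on the survivor array. Of 5 other measured neurotrophin genes, Bdnf and Sort1 had differences of 0.49, Ntf5 had 0.18, Ngfr was equal on both arrays and Ntrk3 had 2.07 and 0.19. The other 7 probe sets of Ntrk3 ran from 0.00 to 0.43, beside -1.89 at that one. The 9 other laminin chains ran from -0.68 to 0.49, and the 4 other sodium pump subunits measured from -0.75 to 0.68.

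Lipid enzymes and membrane traffic gave 9. Agpat3, an acyltransferase of phospholipid synthesis, had a log2 signal of 2.25 on the control array and 6.24 on the survivor array, a difference of 3.99, and Lpcat2b, of a related acyltransferase family, had 0.89 and 4.13, a difference of 3.24. Smpd3, a neutral sphingomyelinase that releases ceramide, had 0.57 and 3.18. Zdhhc18, which attaches palmitate to proteins, had 0.08 and 2.99. All but Agpat3 started at the low common level. Rab3il1, which activates Rab GTPases of secretory vesicles, had 3.92 and 8.20, a difference of 4.27. Ergic3, of the compartment between endoplasmic reticulum and Golgi, had 3.14 and 6.06, a difference of 2.92. Arf2, a GTPase of coat assembly, had 0.25 and 3.07. Dnm3, a dynamin that cuts vesicles from membranes, had the lowest reference control signal of all genes (-0.39) and 3.13 in the survivors. Vat1, a vesicle amine transport protein, had 1.42 and 4.66.

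Related genes again lay on both sides of equality. Of 8 other Agpat and Lpcat genes, 6 were higher in the survivors and 2 lower, from -1.63 for Lpcat1 to 0.78 for Agpat1. Of 14 other genes of sphingomyelin turnover, 7 were higher and 4 lower. One of these, the sphingomyelinase Smpd4, had 9.02 on the control array and 0.57 on the survivor array at 1 of its 4 probe sets. Of 23 other palmitoyltransferases, 10 were higher and 8 lower. Zdhhc14 had 9.23 and 0.57, and a second probe set of it had 9.06 and 0.38, but its other 4 ran from -0.69 to 1.18. Among 8 other genes of the Rab3 cycle, Rab8a had 5.25 and 0.57 and the rest stayed within 1 of equality. The other probe sets of Rab8a had differences of 0.29. The other dynamins were Dnm1 with a difference of 1.44, Dnm2 with -0.68 and Dnm1l with -0.92. Their other probe sets differed from these: that of Dnm1 had 0.33, those of Dnm2 ran from -0.32 to 0.29 and those of Dnm1l from -0.39 to 1.18.

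Cytoskeleton, cell cycle, metal and mitochondrial genes, together with the phosphatase Acp1, gave a further 9. Mtpn (myotrophin), an ankyrin repeat protein that binds actin capping protein, had a log2 signal of 4.88 on the control array and 9.02 on the survivor array, a difference of 4.14. Myh9, a heavy chain of nonmuscle myosin, had 5.87 and 8.64, a difference of 2.77, from the highest starting level of the 40. Cks1b, the cofactor with which the SCF-Skp2 ligase marks the cell cycle inhibitor p27 for degradation, had 5.09 and 8.64, a difference of 3.55. These 3 were among the 13 brightest genes of the survivors. Fbxw16, an F-box protein, had 0.14 and 3.18, and Acp1, the low molecular weight tyrosine phosphatase, had 3.49 and 6.33. Atox1, the chaperone that hands copper to copper-exporting ATPases, had 4.70 and 9.21, a difference of 4.51. The mitochondrial genes started low. Coa6, an assembly factor of cytochrome oxidase, had 0.23 and 3.79, a difference of 3.56. Sfxn2, a mitochondrial sideroflexin, had 1.12 and 4.42, and Oxnad1, an oxidoreductase with a NAD-binding domain, had 0.18 and 2.89.

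Among the partners of these genes, Skp2, the F-box subunit that works with Cks1b, had 3.01 on the control array and 1.56 on the survivor array, and Ccne1, a cyclin, had 1.79 and 3.09. The other probe sets of Skp2 had differences from -0.48 to 0.25, and that of Ccne1 had -0.14. Of 9 other genes of that ligase and its cycle, 4 were higher and 3 lower. Of 11 other genes of copper handling, 4 were higher and 4 lower, and Sod1, the copper and zinc superoxide dismutase, had 1.53 and 3.23 at 1 of its 5 probe sets. The copper exporters Atp7a and Atp7b had differences of -0.43 and 0.00. The 4 other genes of capping protein, the 7 of nonmuscle myosin and the 4 other sideroflexins stayed within 1 of equality at the chosen probe set. Another probe set of the capping protein gene Capzb had a difference of 1.01.

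The remaining 6 were germline genes or genes of little known function. Terb1, which ties meiotic chromosome ends to the nuclear envelope, had a log2 signal of 2.22 on the control array and 7.69 on the survivor array, a difference of 5.46. Nlrp5, a maternal protein of the oocyte, had 0.40 and 3.06, and Tmbim7, of the Bax inhibitor motif family, had 0.17 and 2.78. Fam104a, at 4.87 and 9.96, was the brightest of the 40 in the survivors and ranked 5th of all genes there. Ccdc173, a coiled-coil protein, had 4.44 and 8.28. Gm29722, which has a provisional name and 1 probe set, had the largest difference of all genes, with 3.67 and 9.41. The 4 other meiotic telomere genes measured ran from -0.91 to 0.92, and 1 of the 5 other genes of the Bax inhibitor motif family, Tmbim6, was past 1 (1.01).

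The 42 family and pathway lists together held 5509 genes, of which 12 were among the 40 (0.218%, against 0.22% of all genes). They lay in 9 of the lists. The counts of higher and lower genes in these lists have no share over all genes beside them, so no excess is read from them. Zfp263 was 1 of 400 zinc finger genes, of which 172 others were higher and 144 lower, with Zfp110 the furthest from equality (8.46 and 1.49). Fbxw16 was 1 of 159 genes of ubiquitin conjugation and ligase adaptors, of which 81 others were higher and 50 lower, with the cullin Cul3 the furthest (6.20 and 1.91). The other probe sets of Cul3 had differences from -0.39 to 0.18. Arf2 and Rab3il1 were among 155 symbols of small GTPases and their partners, with 75 others higher and 54 lower.

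The other families also had genes on both sides of equality. Foxf2 was 1 of 137 homeobox, Sox and Fox genes, with 68 others higher and 47 lower, and Hoxd12 (0.21 and 2.30) and Sox4 (5.59 and 0.80) lay far out on either side. Lama5 was 1 of 137 genes for collagens, integrins, cadherins and laminins, with 54 others higher and 55 lower, and the integrin Itgb1 had 8.78 and -0.33. The other probe sets of Itgb1 had differences from -0.68 to 0.29. Fam104a and Ccdc173 were among 494 coiled-coil, transmembrane and Fam symbols (233 others higher, 176 lower), and Gm29722 was among 1750 RIKEN and Gm symbols (832 and 563).

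Over all 24 groups there were 194 related genes, of which 87 were higher in the survivors, 72 lower and 35 equal. These counts too have no share over all genes beside them. The related genes ran from -8.65 to 1.70. Because the rule takes genes above 2.5 out of the related genes, an upper limit at that value was set by the choice, and the 2 ends of this range cannot be compared. Genes of the response to alkylation were also looked at: across 6 lists of mismatch and base excision repair, reversal of alkylation, poly(ADP-ribose) metabolism, checkpoints and cell death, 0 of 95 measured genes belonged to the 40, against 0.22% of all genes, and nothing can be read from a 0 in a list of this size. Above 1 were 7 of the 95 and below -1 were 6, against 4.78% and 5.45% of all genes, and the highest was Rad17 at 2.09. Of 27 markers of neural stem cells, neurons and glia, 0 were among the 40, from which nothing can be read either, 1 was above 1 and 5 were below -1, beside the same shares over all genes.

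**Figure D3:**
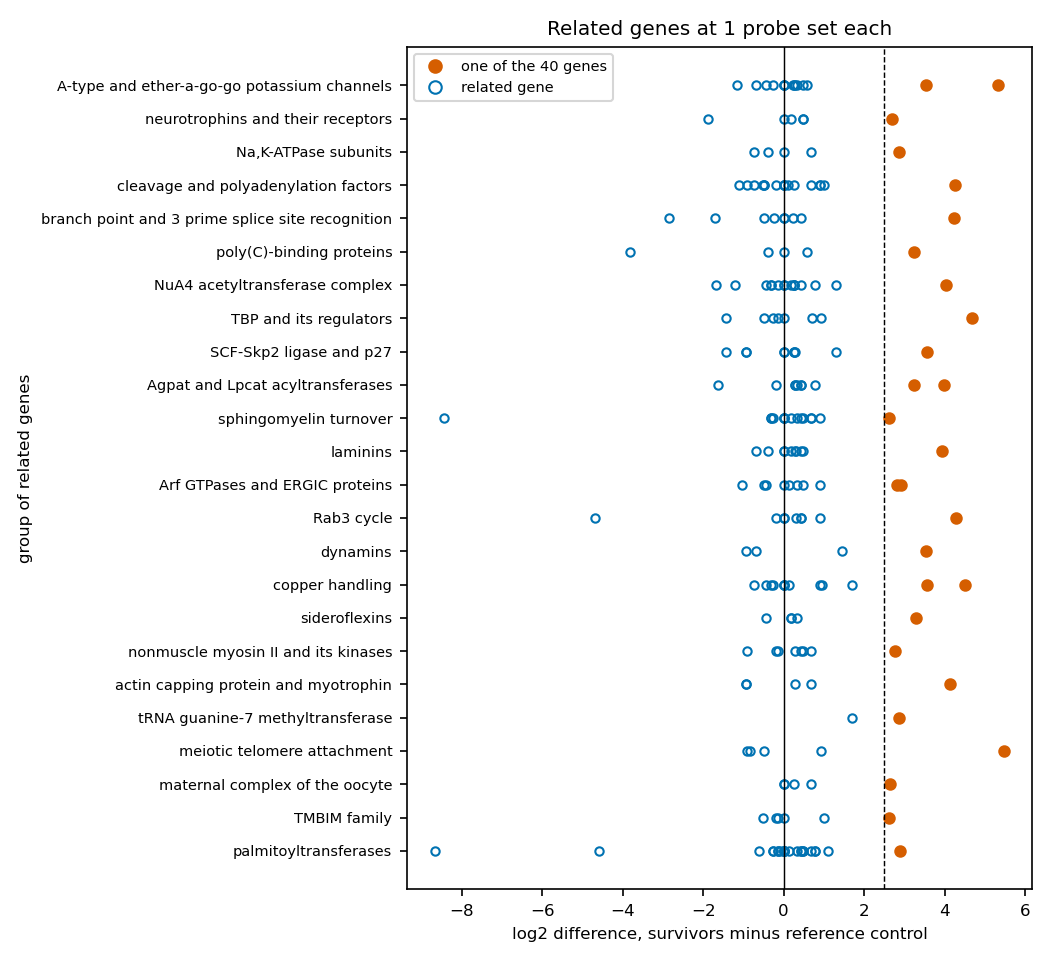
Log2 difference (horizontal axis, survivors minus reference control) of genes in 24 groups (vertical axis), with the 40 genes' members in orange and related genes as open blue circles, each at 1 probe set; the dashed line marks 2.5. The rule draws genes right of the dashed line in orange, so apart from the 6 genes left out by name open circles can only lie left of it, and most of them lie near 0, from -8.65 to 1.70.

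Other probe sets of the same genes mostly did not show the gain. Of the 40 genes, 35 had at least 1 other probe set, and these 98 probe sets had a median log2 difference of 0.00, with 46 higher in the survivors, 43 lower and 9 equal. Within 1 of equality lay 85 of the 98. Another probe set above 1 was found for 7 of the 35 genes (20.0%), against 4.54% of the 9010 genes with several probe sets. Per probe set these were 7 of 98 (7.14%) above 1 and 6 of 98 (6.12%) below -1, against 2.53% and 2.71% of all 16752 probe sets that were not the chosen one of their gene. As they read the same hybridizations that chose the genes, nothing is tested by them.

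Sf1 was the gene of the 40 with a second probe set past 2.5. A probe set whose number follows that of the chosen one had a log2 signal of 0.28 on the control array and 4.13 on the survivor array, a difference of 3.85 beside 4.23, while the other 3 probe sets of Sf1 ran from -0.25 to 0.00. Over all genes, 2 probe sets besides the chosen one were past 2.5 (0.0119%). Kcnh3 had 0.89 and 3.18 at a second probe set, a difference of 2.29, and -0.43 and -0.39 at the others. Morf4l2 had 2.93 and 4.82 at a second one. Ntrk2 had 0.36 and 2.16 at a second one, and its other 6 unchosen probe sets ran from -0.92 to 0.29. Fam104a (1.23), Sfxn2 (1.18) and Smpd3 (1.18) were the others with a second difference above 1.

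Some probe sets of these genes went the other way. Acp1 had 5.43 on the control array and 0.57 on the survivor array at another probe set, a difference of -4.85, against 2.84 at the chosen one. Rab3il1 had 7.60 and 4.02, 6.17 and 5.17, and 1.96 and 0.14 at 3 of its other probe sets. For both genes at least 1 other bright probe set thus differed in the direction opposite to the chosen one. Cpsf3 and Myh9 had 1 other probe set each below -1, at -1.16 and -1.12. Of the 35 genes, 24 had at least 1 other probe set below equality and 7 had all of them above it. Gm29722, Coa6, Lpcat2b, Lrrn2 and Nlrp5 had no other probe set, so their gain stands on 1 reading.

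**Figure D4:**
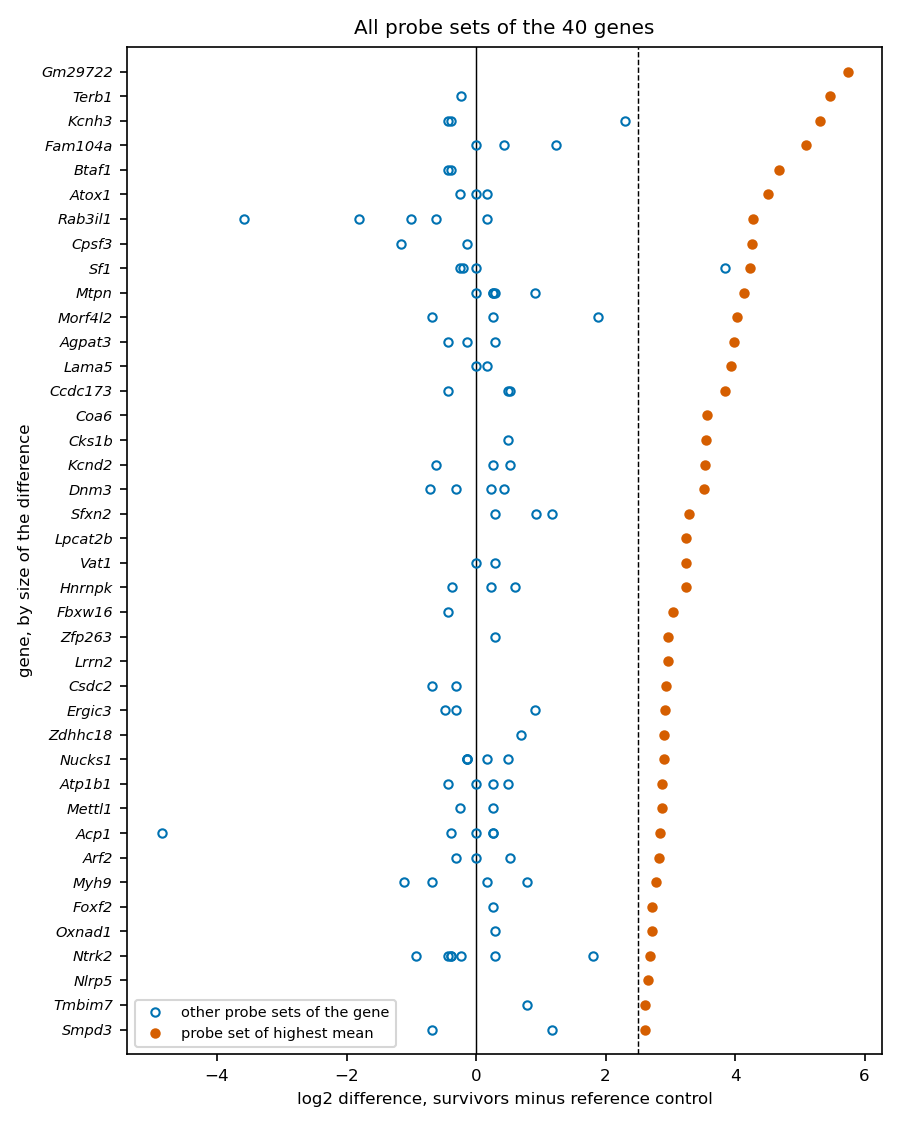
Log2 difference (horizontal axis, survivors minus reference control) of every probe set of the 40 genes (vertical axis, ordered as by size of the gain), with the probe set of highest mean in orange and the others as open blue circles; the dashed line marks 2.5. Of 98 open circles 1, for Sf1 at 3.85, lies beyond the dashed line, and the lowest is that of Acp1 at -4.85.

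The names and numbers of probe sets were not part of the rule, although its choice of the brightest probe set bears on both. The chosen probe sets of the 40 genes had names not ending in plain _at (but in _a_at, _s_at or _x_at, endings of probe sets that can match more than 1 transcript or sequence) in 52.5%, against 19.4% of all genes. The share was 67.2% for the 314 genes with a loss of the same size (1.73% of all genes were below -2.5) and 57.2% for the 547 genes with a mean signal above 2.5 and no such gain. They had a median of 3.5 probe sets per gene against 1 over all genes and 3 for the losing genes, and 87.5%, 49.5% and 93.0% had several. Of the 40, 39 were found among RefSeq genes of the mouse assembly GRCm38.p6, all 39 were protein coding, and 0 pairs of them were neighbors in the genome.

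Some gains were numerically the same. Lpcat2b and Vat1 shared a log2 difference of 3.24 to within 1e-05, although their signals differed (0.89 and 4.13, against 1.42 and 4.66). Zfp263 and Lrrn2 shared 2.96, Zdhhc18 and Nucks1 2.90, and Atp1b1 and Mettl1 2.87. Foxf2 and Oxnad1 shared 2.71, and Tmbim7 and Smpd3 2.61. In all, 12 of the 40 genes (30.0%) had such a partner, against 97.7% of all genes, whose 18193 differences took 646 distinct values, and 27.1% of the genes with a loss below -2.5. None of the 18 genes above 3.5 shared its difference. Signals were shared as well: the control value of Smpd3 was also that of 504 other genes, that of Lpcat2b of 367 and that of Btaf1 of 164. With 1 array per condition, the order of neighboring genes in this range has no replicate error beside it.

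At the threshold, the genes just inside were Smpd3 and Tmbim7 at 2.61, Nlrp5 at 2.65, Ntrk2 at 2.69 and Oxnad1 at 2.71. Just outside were Fndc11, Rrp1b, Epp13 and Sowahb, all at 2.48, and then Arhgef40 at 2.29. The scale of the arrays moved this line. All 18 hybridization controls, foreign transcripts spiked in at known levels, were higher on the survivor array, by 0.084 to 3.86 with a median of 2.77. With the arrays centered on them 3 of the 40 genes stayed above 2.5 (Gm29722, Terb1 and Kcnh3) and 6 had differences below 0, whereas quantile normalization and loess left all 40 above it and added 94 and 34 genes.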

How the data were processed

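Each condition had 1 Affymetrix mouse array. The values deposited by the authors are log2 signals of probe sets. RMA is the method in the submitters' processing notes, and its version is not given in the sources used here. Besides this, the paper names quantile normalization, ANOVA, a program supplied with the library, and R. The paper's own selection also asked for a minimum signal intensity, which the rule used here does not. The deposited values of the arrays were not equal in distribution. Above a log2 signal of 5 there were 201 genes on the control array and 42 on the survivor array. Quantile normalization applied here to these values changed the number of genes above 2.5, after leaving out genes by name, from 40 to 134. Why the deposited values differ in this way was not tested. The labels name genomic DNA as the material, the paper total RNA. Computed here were differences for 34945 probe sets with 1 gene symbol, without 64 control probe sets of the manufacturer (932 probe sets carried several symbols, 9160 none). The gene ID gave a current symbol for 34741 (GRCm38.p6, names only). Members, 42 gene lists and 24 groups of related genes were chosen with earlier results of these data known, the groups after the members. The rule for named genes took all 40 members, the 5 genes on each side of the threshold and up to 3 others of largest absolute difference per list with a member. Further related genes were named after their values were seen. The number of arrays limits the precision, and no test was made. Genes left out by name were E2f5, Tspyl3, Ptpn2, Ywhaq, Mtx1 and Syt6. Alternatives were median centering, quantile normalization, loess (fraction 0.3), centering on hybridization controls, a floor, other thresholds, probe set filters and other choices of the probe set. Differences and medians count as moved past 0.47, the scaled median absolute deviation of the differences. Numbers of genes were judged by their ratio to the main result instead. On simulated data only the choice of genes, with gains set well above the threshold, and the quantile step were checked. The software was Python 3.11.15 with pandas 2.3.3, numpy 2.4.6, statsmodels 0.14.6, scipy 1.17.1 and matplotlib 3.10.9.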

Additional observations from a re-analysis of the deposited data

How the results depend on the processing

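No paired analysis was possible because each condition had 1 array. Centering the arrays on their median, a floor at the 25th percentile, a filter on low mean signal and the probe set of highest survivor signal gave 38 to 41 genes. Leaving out probe sets ending in _x_at or _s_at gave 31, of which 30 were among the 40, and leaving out _a_at as well, chosen after seeing the data, gave 20. Every count here leaves out genes by name, as the rule does. Quantile normalization gave 134 genes above 2.5. Of these, 63 were above 5 in the survivors and 21 had another probe set above 1, and loess gave 74, 46 and 19. Centering on the hybridization controls gave 3, 2 and 0, with a median difference of 2.70 and one of -3.08 at other probe sets. A threshold of 2 gave 83 genes with a median of 2.48 and 12 with another probe set above 1, and one of 3 gave 23 with a median of 3.99. The probe set of lowest mean gave 5 genes, 1 above 5 and 0 with another above 1, and the median over probe sets gave 6 and 1. Without _x_at and _s_at, 3 had another probe set above 1.

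Differences that turned negative after centering on the hybridization controls were those of Foxf2 and Oxnad1 (-0.054), Ntrk2 (-0.081), Nlrp5 (-0.11), and Smpd3 and Tmbim7 (-0.16). With the median over probe sets they were those of Cpsf3 (-0.14), Ntrk2 (-0.31), Csdc2 (-0.32), Btaf1 (-0.39) and Rab3il1 (-0.81). Without _x_at and _s_at they were those of Cpsf3 (-0.14), Sf1 (-0.19), Ergic3 (-0.48) and Morf4l2 (-0.69). With the probe set of lowest mean they were those of Agpat3, Cpsf3 and Nucks1 (-0.14), Terb1 (-0.23), Sf1 (-0.25), Btaf1, Kcnh3 and Ntrk2 (-0.39), Ccdc173 and Fbxw16 (-0.43), Ergic3 (-0.48), Kcnd2 (-0.62), Myh9 and Smpd3 (-0.68), and Csdc2 and Morf4l2 (-0.69). These settings replace the chosen probe set by others of the gene, or shift 1 array against the other.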
